A study of Mus musculus with 15 samples.

Results

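The 10 genes described here carry vitamin B12 (cobalamin) into cells, release it inside them, and control part of that route: Tcn2, Cd320, Lmbrd1, Abcd4, Mmachc, Mmadhc, Mmaa, Mmab, Thap11 and Hcfc1. They were taken by gene symbol. All 10 were present among the 30386 genes of the deposited table, and all 10 had enough reads to be among the 11718 genes tested. Expression was measured in mouse brain by QuantSeq, which sequences from the poly(A) end, so a transcript yields about the same number of reads whatever its length. The study asked how losing 1 copy of Tbx1, which encodes a T-box transcription factor, alters the adult brain, and what vitamin B12 does in such animals. The 15 libraries form 3 groups of 5. Het_B12 were Tbx1+/- mice given vitamin B12 at 20 mg/kg, Het_PBS were Tbx1+/- mice given phosphate-buffered saline (PBS), and WT_PBS were wild-type mice given PBS. All animals had intraperitoneal injections, 2 per week over 4 weeks, and were 4 weeks old when these began. The sources used here do not say how the Tbx1 allele was disrupted, whether animals were pooled, or which sex they were. Wild types on vitamin B12 were not analysed here, so an effect of the vitamin can be read only in heterozygotes.

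Cobalamin circulates bound to transcobalamin, is taken up by receptor-mediated endocytosis and is freed in the lysosome. It is then exported to the cytosol, stripped of its upper ligand, and directed to methionine synthase in the cytosol or to methylmalonyl-CoA mutase in mitochondria. In humans, loss of these genes causes inborn errors of cobalamin metabolism that often affect the brain. THAP11 and HCFC1 act together in transcription, and human mutations in either lower the expression of MMACHC.

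Promoter sequence is shown for Thap11 and Mmachc. Thap11 was chosen because it encodes a factor that binds the element described below. It alone of the 10 genes also passed a test for any difference among the 3 groups, marginally (below). Mmachc was chosen because its window alone, of those searched, held that element, so its match is no test of a gene named beforehand. It is also the known target of the Thap11 and Hcfc1 proteins. Each window covers 250 bases before and 50 bases after the RefSeq start (build GRCm38.p6), written 5′ to 3′ on the strand of the gene. Capitals mark a match to the element bound by complexes of Thap11 and Zfp143, searched on both strands as the core ACTACA, alone or followed after 2 bases by TCCCA. The Mmachc window (chr4:116708336-116708635, minus strand) and the Thap11 window (chr8:105854853-105855152, plus strand) read:
Mmachc: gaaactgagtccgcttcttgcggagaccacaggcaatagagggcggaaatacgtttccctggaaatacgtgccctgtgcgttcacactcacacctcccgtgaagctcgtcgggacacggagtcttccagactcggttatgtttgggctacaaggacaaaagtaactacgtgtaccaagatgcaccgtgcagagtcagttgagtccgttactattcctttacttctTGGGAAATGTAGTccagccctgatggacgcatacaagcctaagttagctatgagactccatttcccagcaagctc
Thap11: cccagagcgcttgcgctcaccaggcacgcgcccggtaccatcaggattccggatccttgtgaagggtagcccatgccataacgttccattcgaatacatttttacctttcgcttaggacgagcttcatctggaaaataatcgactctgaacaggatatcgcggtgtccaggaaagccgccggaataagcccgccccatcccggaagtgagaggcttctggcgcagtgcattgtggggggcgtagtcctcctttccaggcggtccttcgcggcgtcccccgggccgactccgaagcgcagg
The Mmachc window holds the core with its tail on the opposite strand, at positions -25 to -13 from the start. The Thap11 window holds neither form. RefSeq promoters were at hand for 7 of the 10 genes, in 10 windows, and 1 of these windows held the core, with its tail. Over all 32851 promoters of the same length, 10.3% held the core and 1.47% held the core with its tail.

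Total counts were 2098847 to 2746122 in Het_B12, 1683258 to 2645833 in Het_PBS and 1707033 to 2593316 in WT_PBS, where 1 read equals 0.340 to 0.598 CPM. CPM is the read count of a gene scaled to a common library size, here after TMM normalisation, which adjusts for library composition. Tbx1 had 1 read in Het_B12, 3 in Het_PBS and 3 in WT_PBS, each time in 1 library, so the genotype labels could not be checked by it. Markers of neurons, astrocytes, oligodendrocytes and microglia all had reads in every library, as the tissue label states. The neuron markers summed to 5512 to 6069 CPM in Het_B12, 5403 to 6128 CPM in Het_PBS and 5653 to 6623 CPM in WT_PBS. WT_PBS 3 stood apart from the other WT_PBS libraries, with the lowest sums in its group for astrocyte (4236 CPM), microglia (439 CPM), meningeal (1900.2 CPM) and leukocyte (12.3 CPM) markers. Its oligodendrocyte (3760 CPM) and erythroid (486 CPM) sums were also the lowest of WT_PBS. Its neuron, endothelial, pericyte and choroid plexus sums were not. Het_PBS 5 had the highest leukocyte sum of all libraries (109 CPM) and the fewest counts. Reads assigned to Gm42418, which overlaps ribosomal RNA sequence, made up 3.31 to 6.28% of the counts in Het_B12, 6.47 to 10.3% in Het_PBS and 10.6 to 14.9% in WT_PBS. These ranges did not overlap. TMM factors were 1.05 to 1.08 in Het_B12 and 0.932 to 1.01 in the other libraries. The part of these differences between libraries in the gene levels below was not tested.

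None of the 10 genes passed the test between any pair of groups, and 1 of them, Thap11, passed the 3-group test, which asks whether the level differs anywhere among the groups and which 7.75% of all tested genes passed. Differences were tested with edgeR's quasi-likelihood test over all 11718 genes, with calls made where the p adjusted by Benjamini-Hochberg was under 0.05. For Het_B12 against Het_PBS 0 of the 10 genes were called, where 7.26% of all tested genes were. For Het_PBS against WT_PBS 0 of 10 were called, beside 0% of all tested genes, and for Het_B12 against WT_PBS 0 of 10 beside 7.33%. At an unadjusted p under 0.05 the counts were 0, 2 and 3 of the 10 genes in the same order of comparisons, beside 21.7%, 7.5% and 21.6% of all tested genes. The median log2 fold change of the 10 genes was 0.04 in each comparison, beside medians of 0.01, -0.01 and 0.01 over all tested genes. Summed over the 10 genes, the level was 280.1 to 333 CPM in Het_B12, 271 to 311 CPM in Het_PBS and 276 to 308 CPM in WT_PBS, and these ranges overlapped. Het_PBS is shared by the comparison with Het_B12 and that with WT_PBS, so their fold changes are not independent.

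**Figure D1:**
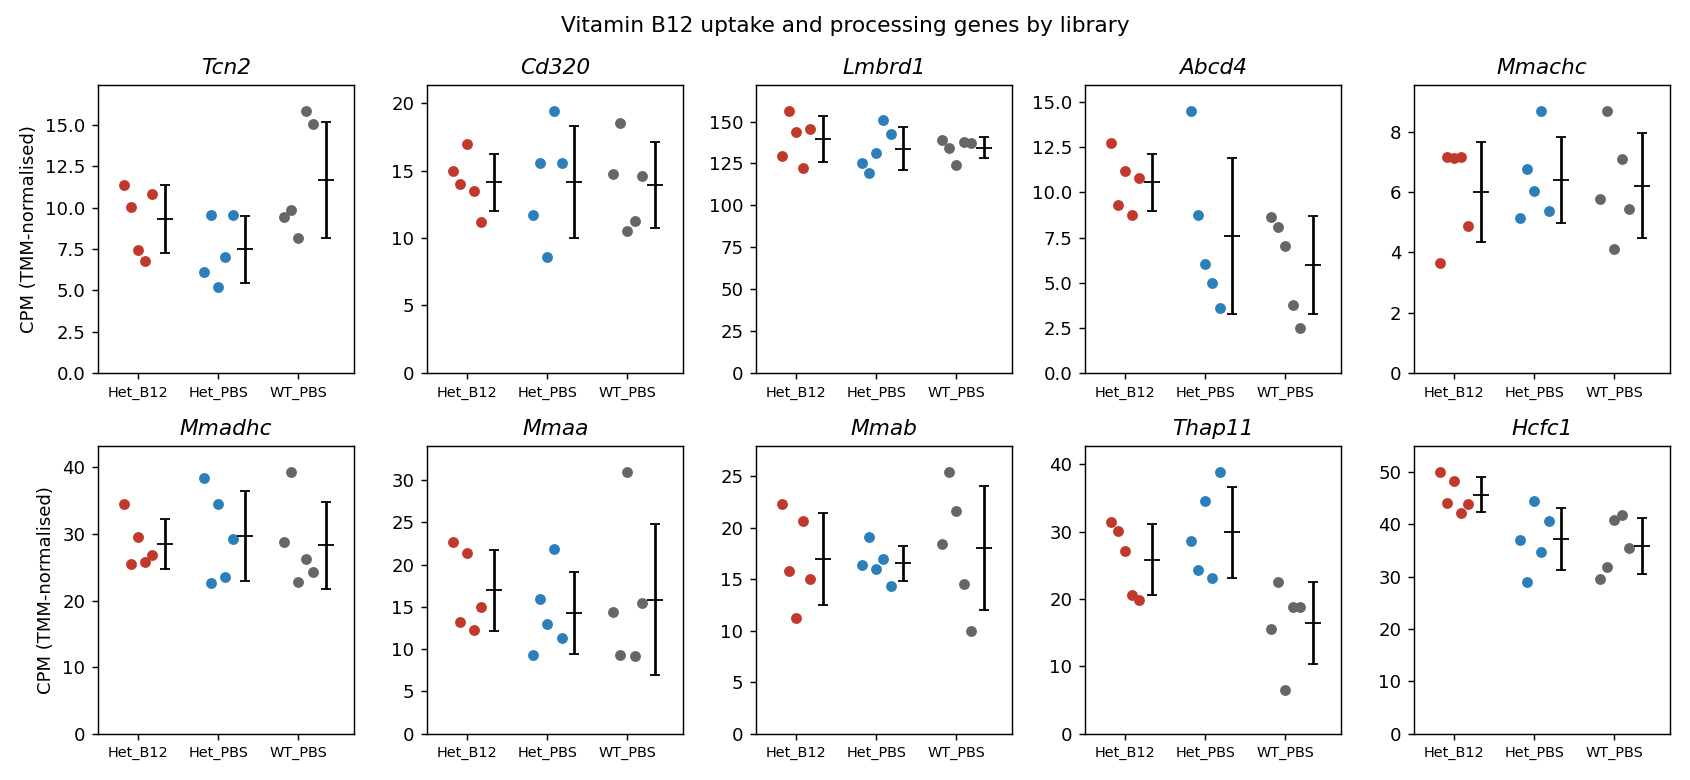
Level of each of the 10 genes (y axis, TMM-normalised CPM, each panel with its own scale from 0) in the 5 libraries of Het_B12, Het_PBS and WT_PBS (x axis); points are libraries and bars are the mean ± SD. All 5 Het_PBS points of Thap11 lie above all 5 WT_PBS points, and all 5 Het_B12 points of Hcfc1 and of Abcd4 lie above all 5 WT_PBS points, while the groups overlap for the other 7 genes.

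The carrier and its receptor come first in the route. Tcn2 (ENSMUSG00000020432, GRCm38 chromosome 11, 3917192 to 3932159, minus strand) encodes transcobalamin, the plasma protein that delivers cobalamin to cells. It had 11.4, 10.0, 7.47, 6.75 and 10.8 CPM in Het_B12, 6.08, 9.56, 5.18, 7.02 and 9.57 CPM in Het_PBS, and 9.44, 9.83, 8.18, 15.8 and 15.04 CPM in WT_PBS. The groups overlapped, although WT_PBS 4 and WT_PBS 5 lay above every heterozygous library. Het_PBS averaged 7.48 ± 2.01 CPM and WT_PBS 11.7 ± 3.51 CPM (SD, n = 5 each). The log2 fold change between them was -0.66 ± 0.31 (SE), a fold of 0.633 with a 95% interval of 0.410 to 0.979. By edgeR the unadjusted p was 0.0403 and the adjusted p 0.64. With Het_B12 at 9.29 ± 2.06 CPM, the log2 fold change was 0.31 ± 0.31 against Het_PBS (adjusted p = 0.611) and -0.34 ± 0.30 against WT_PBS (adjusted p = 0.539).

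Cd320 (ENSMUSG00000002308, chromosome 17, 33843091 to 33849774, plus strand) encodes the cell-surface receptor for transcobalamin. It averaged 14.1 ± 2.13 CPM in Het_B12, 14.2 ± 4.12 CPM in Het_PBS and 13.9 ± 3.20 CPM in WT_PBS (n = 5 each, SD). The group means of the receptor gene were closer together than its libraries within any group. Het_B12 against Het_PBS gave a fold of 0.997 with a 95% interval of 0.70 to 1.42, and Het_PBS against WT_PBS gave 1.02 (0.709 to 1.46). At this depth, folds within these limits remain compatible with the data.

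Export from the lysosome needs the products of Lmbrd1 and Abcd4, which form a complex in the lysosomal membrane. Lmbrd1 (ENSMUSG00000073725, chromosome 1, 24678630 to 24766301, plus strand) gave 4786 of the 10496 reads of the 10 genes, or 45.6%, and was measured with the narrowest intervals. Its level was 129.6, 156, 144, 122 and 146 CPM in Het_B12, 125, 119, 131, 151 and 142 CPM in Het_PBS, and 139, 134, 124, 138 and 137 CPM in WT_PBS. The groups overlapped throughout. The 95% interval of the fold was 0.895 to 1.22 for Het_B12 against Het_PBS, 0.849 to 1.16 for Het_PBS against WT_PBS and 0.889 to 1.21 for Het_B12 against WT_PBS.

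Abcd4 (ENSMUSG00000021240, chromosome 12, 84601464 to 84617413, minus strand) encodes the ATP-binding cassette transporter of that complex. It had 12.7, 9.32, 11.2, 8.74 and 10.8 CPM in Het_B12, 14.5, 8.76, 6.04, 4.96 and 3.59 CPM in Het_PBS, and 8.62, 8.10, 7.01, 3.75 and 2.51 CPM in WT_PBS. Every Het_B12 library lay above every WT_PBS library, a pattern that 2.44% of all tested genes showed, by a margin of 8.74 against 8.62 CPM at the nearest libraries. Het_PBS spanned both ranges. The log2 fold change of Het_B12 against WT_PBS was 0.83 ± 0.37 (fold 1.78, 95% interval 1.06 to 2.99), with an unadjusted p of 0.0308 and an adjusted p of 0.178 by edgeR. The 15 libraries held 287 Abcd4 reads, and the coefficient of variation in Het_PBS was 57.0%, where counting error alone gives 24.3%.

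The cytosolic steps belong to Mmachc and Mmadhc. Mmachc (ENSMUSG00000028690, chromosome 4, 116702279 to 116708406, minus strand), whose product removes the upper ligand of cobalamin, had the fewest reads of the 10 genes, 219, with 7 to 21 per library. It had 3.64, 7.17, 7.13, 7.15 and 4.88 CPM in Het_B12, 5.15, 6.77, 6.04, 8.67 and 5.38 CPM in Het_PBS, and 5.75, 8.68, 4.09, 7.09 and 5.43 CPM in WT_PBS. The 3 groups overlapped, and their coefficients of variation of 27.4%, 22.1% and 28.1% were near the 24.8%, 26.4% and 27.5% that counting error gives. The fold was 0.936 (95% interval 0.563 to 1.56) for Het_B12 against Het_PBS, 1.04 (0.619 to 1.74) for Het_PBS against WT_PBS and 0.972 (0.582 to 1.62) for Het_B12 against WT_PBS. With so few reads, folds inside these intervals remain compatible with the data.

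Mmadhc (ENSMUSG00000026766, chromosome 2, 50279881 to 50296801, minus strand) encodes the adaptor that directs cobalamin to the cytosolic or the mitochondrial enzyme. It averaged 28.4 ± 3.77 CPM in Het_B12, 29.7 ± 6.81 CPM in Het_PBS and 28.3 ± 6.57 CPM in WT_PBS (n = 5 each, SD). Its libraries ran from 25.4 to 34.6 CPM in Het_B12, 22.7 to 38.4 CPM in Het_PBS and 22.8 to 39.3 CPM in WT_PBS, so the Het_B12 range lay inside both others. The log2 fold change was -0.06 ± 0.19 for Het_B12 against Het_PBS and 0.07 ± 0.19 for Het_PBS against WT_PBS (edgeR adjusted p = 0.898 and 0.965).

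The mitochondrial arm is held by Mmaa and Mmab. Mmaa (ENSMUSG00000037022, chromosome 8, 79263598 to 79294937, minus strand) encodes a GTPase that guards methylmalonyl-CoA mutase and its cofactor. It had 22.7, 13.3, 21.4, 12.3 and 14.998 CPM in Het_B12, 9.36, 15.9, 12.9, 21.9 and 11.4 CPM in Het_PBS, and 14.4, 9.25, 31.0, 9.17 and 15.5 CPM in WT_PBS. WT_PBS 3, with 53 reads, lay far above the other WT_PBS libraries. The log2 fold change of Het_PBS against WT_PBS was -0.12 ± 0.30 with that library and 0.26 without it, and neither was called. Het_B12 stood at 0.23 ± 0.29 against Het_PBS and 0.11 ± 0.29 against WT_PBS (edgeR adjusted p = 0.707 and 0.867). Leaving out 1 library moved these Mmaa values to 0.11 to 0.43 against Het_PBS, lowest without Het_B12 1 and highest without Het_PBS 4, and to -0.04 to 0.47 against WT_PBS, lowest without WT_PBS 4 and highest without WT_PBS 3.

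Mmab (ENSMUSG00000029575, chromosome 5, 114431034 to 114444060, minus strand) encodes the adenosyltransferase that makes adenosylcobalamin, the form the mutase uses. It averaged 17.0 ± 4.48 CPM in Het_B12, 16.5 ± 1.73 CPM in Het_PBS and 18.0 ± 5.999 CPM in WT_PBS (n = 5 each, SD). The means differed by less than the spread within Het_B12 and within WT_PBS. The fold was 1.01 (95% interval 0.719 to 1.43) for Het_B12 against Het_PBS, 0.934 (0.659 to 1.32) for Het_PBS against WT_PBS and 0.948 (0.672 to 1.34) for Het_B12 against WT_PBS.

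Thap11 (ENSMUSG00000036442, chromosome 8, 105855132 to 105856950, plus strand) encodes a zinc-finger DNA-binding protein that recruits Hcfc1 to promoters. Among the 10 genes it alone passed the 3-group test, with F = 6.72 and an edgeR adjusted p of 0.0444, rank 838 of 11718, where 7.75% of all tested genes passed. It had 31.4, 30.1, 27.2, 20.7 and 19.9 CPM in Het_B12, 28.5, 24.3, 34.5, 23.1 and 38.9 CPM in Het_PBS, and 15.6, 22.6, 6.43, 18.8 and 18.8 CPM in WT_PBS. Every Het_PBS library lay above every WT_PBS library, a pattern of 0.393% of all tested genes, by a margin of 23.1 against 22.6 CPM at the nearest libraries. Het_B12 overlapped both PBS groups, with 3 of its 5 libraries above the highest WT_PBS library.

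Thap11 averaged 25.8 ± 5.31 CPM in Het_B12, 29.9 ± 6.72 CPM in Het_PBS and 16.4 ± 6.11 CPM in WT_PBS (n = 5 each, SD), so that Het_PBS was highest, Het_B12 next and WT_PBS lowest. Between Het_B12 and Het_PBS the log2 fold change was -0.20 ± 0.22 (fold 0.869, 95% interval 0.637 to 1.19, adjusted p = 0.655), less than the spread in either group. Between Het_PBS and WT_PBS it was 0.84 ± 0.23 (fold 1.79, 95% interval 1.29 to 2.49), with an unadjusted p of 0.000974, rank 23 of all tested genes, and an adjusted p of 0.473. Between Het_B12 and WT_PBS it was 0.64 ± 0.23 (fold 1.56, 1.12 to 2.16), with an unadjusted p of 0.00957 and an adjusted p of 0.0917. No pair of groups therefore passed over all genes, although the 3-group test did.

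The Thap11 call was marginal. With each library left out in turn, the adjusted p of the 3-group test ran from 0.0233 to 0.0985, and the call was lost in 10 of the 15 fits. Those 10 were the fits without Het_B12 1 (0.0706), Het_B12 2 (0.0611), Het_B12 3 (0.0646), Het_PBS 1 (0.0587), Het_PBS 3 (0.0859), Het_PBS 5 (0.0788), WT_PBS 1 (0.0985), WT_PBS 3 (0.0918), WT_PBS 4 (0.0579) and WT_PBS 5 (0.062). WT_PBS 3, at 6.43 CPM from 11 reads, was the lowest library of all. Het_PBS against WT_PBS stood at a log2 fold change of 0.67 without it. Without WT_PBS 3 and Het_PBS 5 together it was 0.55, and the 3-group adjusted p was 0.176. Het_PBS against WT_PBS and Het_B12 against WT_PBS stood above 0 in every fit run, at 0.55 to 0.96 and 0.45 to 0.76.

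**Figure D2:**
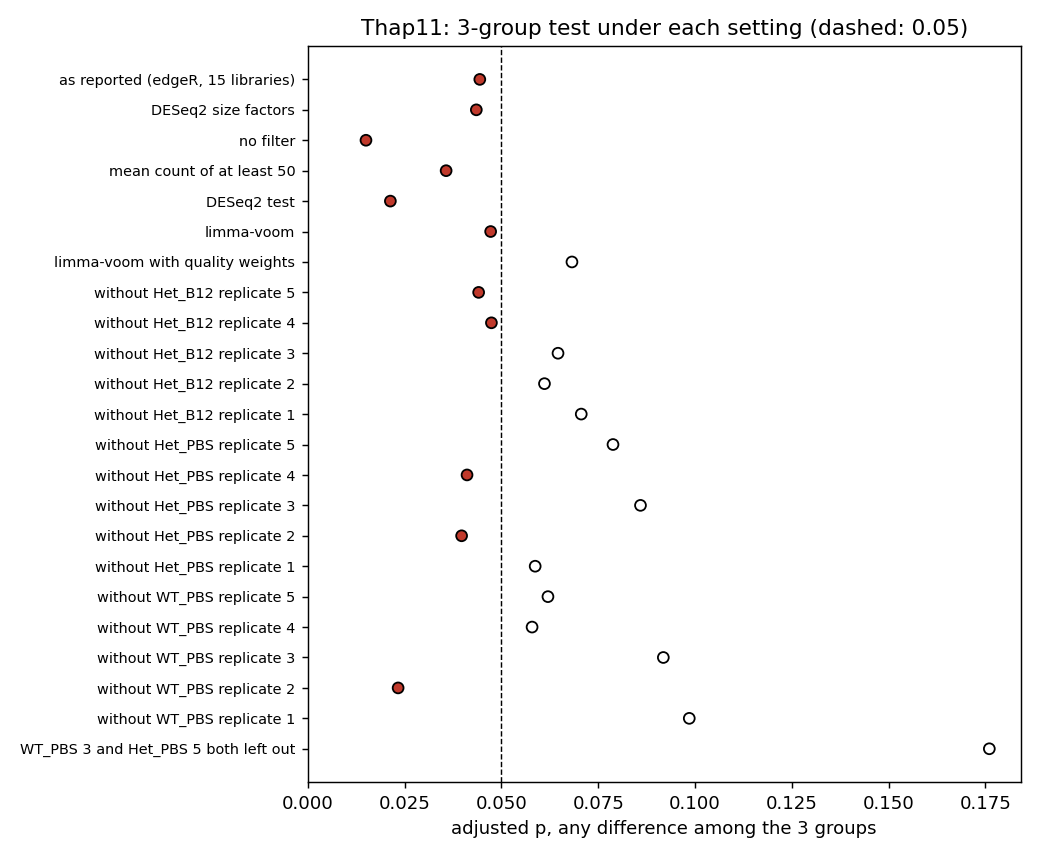
Benjamini-Hochberg adjusted p of Thap11 for any difference among Het_B12, Het_PBS and WT_PBS (x axis) by setting (y axis: as reported, other tools and filters, each library left out, and 2 libraries left out together). Filled points are under 0.05 and the dashed line marks 0.05. The replicate block, with an adjusted p of 0.0569 by edgeR, is not drawn. The reported value of 0.0444 lies close to the line, with 10 of the 15 fits that leave out 1 library to its right.

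The tested genes whose levels were most like those of Thap11 over the 15 libraries, leaving out predicted genes, were Rab9 (Pearson r = 0.87 of log2 CPM), which encodes a GTPase of endosomal transport, and Tyrobp (r = 0.86), a microglial signalling adaptor gene. With group means removed these correlations were 0.80 and 0.82. The points share their libraries and depths, and the genes were picked from all tested genes for their likeness. The 9 microglia markers summed to 372 to 448 CPM in Het_B12, 567 to 775 CPM in Het_PBS and 439 to 735 CPM in WT_PBS, with 0 markers without reads in any group. Thap11 and the microglia sum were both lowest in their group in WT_PBS 3 and both highest in theirs in Het_PBS 5. The meningeal sums (1900.2 and 3409 CPM) and leukocyte sums (12.3 and 109 CPM) of these libraries were likewise the lowest and the highest of their groups. Thap11 and the microglia sum were also both highest of Het_B12 in Het_B12 1. Their other extremes fell in different libraries. In WT_PBS the highest was WT_PBS 2 for Thap11 and WT_PBS 5 for microglia. In Het_PBS the lowest was Het_PBS 4 for Thap11 and Het_PBS 1 for microglia. In Het_B12 the lowest was Het_B12 5 for Thap11 and Het_B12 2 for microglia. Of the groups, Het_B12 was lowest in the microglia sum and WT_PBS was lowest in Thap11. The 5 erythroid markers summed to 499 to 979.6 CPM in Het_B12, 778 to 4991 CPM in Het_PBS and 486 to 1297 CPM in WT_PBS, and all 5 lay above 0 in Het_PBS against WT_PBS (median log2 fold change 1.30, 0 called). The 6 leukocyte markers summed to 11.5 to 16.4 CPM, 29.5 to 109 CPM and 12.3 to 41.4 CPM in the same order of groups, and the 4 tested lay above 0 in Het_PBS against WT_PBS (median 0.52, 0 called). No marker of either list was without reads in any group. The part of microglia, meningeal cells, erythroid cells and leukocytes in the Thap11 difference was not tested. In such bulk samples fewer cells of a type and less RNA per cell cannot be told apart.

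Hcfc1 (ENSMUSG00000031386, X chromosome, 73942792 to 73966357, minus strand) encodes host cell factor 1, a transcriptional co-regulator and the partner of Thap11. It had 50.0, 44.1, 48.2, 42.1 and 43.9 CPM in Het_B12, 37.0, 29.1, 44.4, 34.7 and 40.7 CPM in Het_PBS, and 29.6, 31.8, 40.9, 41.7 and 35.5 CPM in WT_PBS. Every Het_B12 library lay above every WT_PBS library, as for Abcd4, a pattern that 2.44% of all tested genes showed. The margin was 42.1 against 41.7 CPM at the nearest libraries. Het_PBS 3 alone of the Het_PBS libraries reached the Het_B12 range. Het_B12 averaged 45.7 ± 3.30 CPM, Het_PBS 37.2 ± 5.85 CPM and WT_PBS 35.9 ± 5.38 CPM (SD, n = 5 each). The log2 fold change was 0.30 ± 0.16 for Het_B12 against Het_PBS (fold 1.23, 95% interval 0.989 to 1.53, edgeR adjusted p = 0.261) and 0.35 ± 0.16 for Het_B12 against WT_PBS (fold 1.27, 1.02 to 1.59, adjusted p = 0.186). Het_PBS against WT_PBS stood at 0.05 ± 0.16 (adjusted p = 0.974).

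The summed level of 9 endothelial markers was also higher in Het_B12, at 182 to 249 CPM, against 82.4 to 115 CPM in Het_PBS and 79.6 to 124 CPM in WT_PBS. Of the 7 that were tested, 5 rose and 0 fell in Het_B12 against Het_PBS, and 0 of the 9 were without reads in any group. The astrocyte sum was lower in Het_B12, at 3224 to 3853 CPM, against 5000.0 to 5499.7 CPM in Het_PBS and 4236 to 5944 CPM in WT_PBS, and 6 of the 8 markers fell against Het_PBS. The part of these shifts in the values of Hcfc1 and Abcd4 was not tested.

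**Figure D3:**
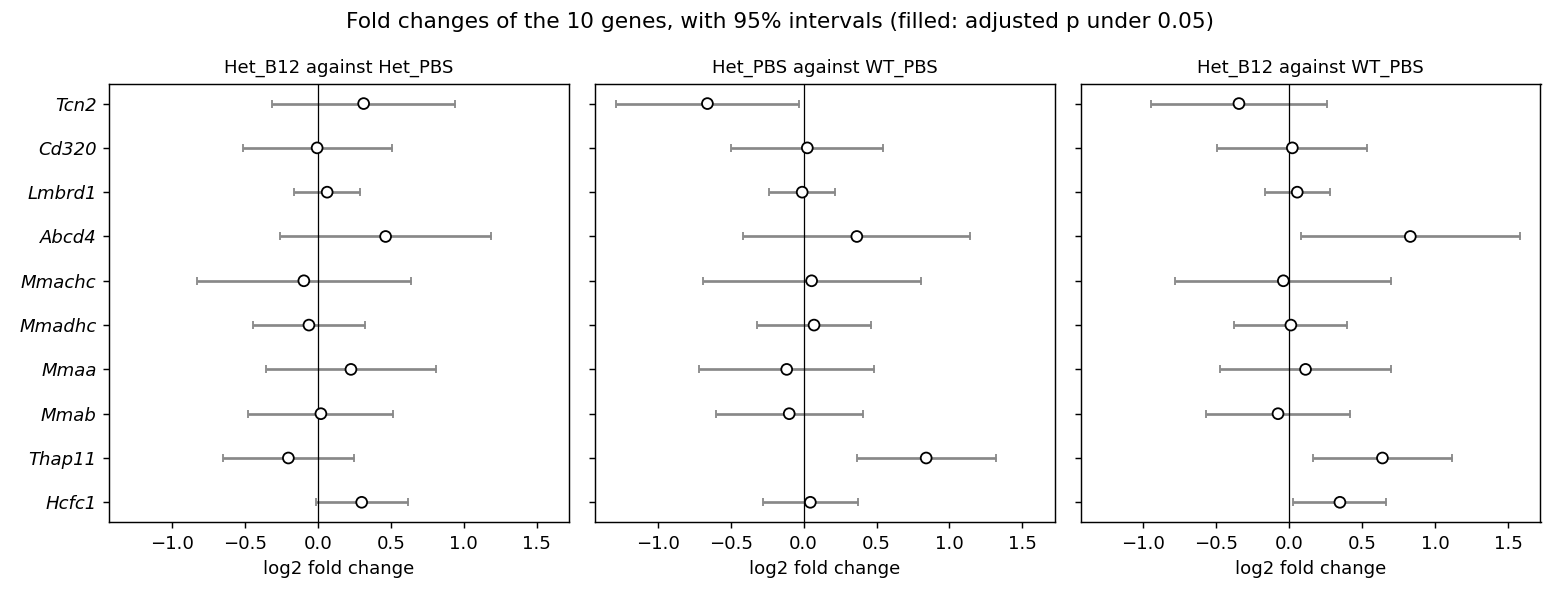
Log2 fold change of each of the 10 genes (x axis) with its 95% interval, by gene (y axis), for Het_B12 against Het_PBS, Het_PBS against WT_PBS and Het_B12 against WT_PBS; filled points would mark an adjusted p under 0.05, and there are 0. Lmbrd1 has the narrowest intervals, and the intervals of Thap11 (0.84 and 0.64) lie above 0 in both comparisons with WT_PBS. The interval of Tcn2 lies below 0 in Het_PBS against WT_PBS, and those of Abcd4 and Hcfc1 lie above 0 in Het_B12 against WT_PBS.

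No common variation of the 10 genes was seen across libraries, and counting error limits what could be seen. Over their 45 pairs, Pearson's r of log2 CPM in the 15 libraries had a median of -0.01 and ran from -0.47 (Lmbrd1 and Mmab) to 0.48 (Mmadhc and Thap11). It was 0.23 for Thap11 and Hcfc1, 0.21 for Thap11 and Mmachc and -0.35 for Mmachc and Hcfc1. These are descriptions of genes that share libraries and depth, and counting error limits them most for Mmachc. It limits others too. The coefficient of variation was 22.1% for Tcn2 and 15.1% for Cd320 in Het_B12, where counting error gives 20.2% and 16.3%. For Mmab in Het_PBS it was 10.4%, where counting error gives 16.4%.

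Other genes, of cobalamin handling or linked to it, were taken from a list of 16, of which 13 were tested. Prdx1 is on this list as the neighbour of Mmachc, not as a gene of cobalamin handling. Of these 13 genes, 0 rose and 1, Prdx1, fell in Het_B12 against Het_PBS, beside 3.47% and 3.79% of all tested genes. In Het_PBS against WT_PBS 0 rose and 0 fell, and in Het_B12 against WT_PBS 0 rose and 1, again Prdx1, fell, beside 3.22% and 4.11%. The median log2 fold change of the 13 was -0.11, 0.07 and -0.0015 in the same order of comparisons. Cubn and Lrp2, which encode the endocytic receptors cubilin and megalin, were not tested: Cubn had 0 reads in Het_B12, 2 in Het_PBS and 10 in WT_PBS, and Lrp2 had 1, 3 and 10 in the same order of groups. Gif, which encodes gastric intrinsic factor, had 0 reads in every library.

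Prdx1 (ENSMUSG00000028691, chromosome 4, 116685544 to 116700822, plus strand) encodes the antioxidant enzyme peroxiredoxin 1 and is the neighbour of Mmachc, with the 3′ ends of both genes facing each other across 1456 bases. In humans, a class of PRDX1 mutations silences MMACHC from that side. Prdx1 had 131, 128, 132, 110 and 107 CPM in Het_B12, 202, 155, 203, 209 and 197 CPM in Het_PBS, and 214, 231, 133, 128 and 211 CPM in WT_PBS. Every Het_B12 library lay below every Het_PBS library, a pattern of 4.07% of all tested genes, whereas WT_PBS 4 lay within the Het_B12 range and WT_PBS 3 just above it. The fold was 0.629 (95% interval 0.519 to 0.764) against Het_PBS, a log2 fold change of -0.67 ± 0.14 with an edgeR adjusted p of 0.00175, and 0.662 against WT_PBS (-0.60 ± 0.14, adjusted p = 0.00567). Het_PBS against WT_PBS stood at 0.07 ± 0.14 (adjusted p = 0.949). Mmachc, in the same comparison of Het_B12 with Het_PBS, stood at -0.10 ± 0.36. Of the tested markers, 6 of 8 astrocyte, 5 of 9 microglia, 4 of 6 meningeal, 3 of 4 leukocyte and 5 of 5 erythroid genes also fell in Het_B12 against Het_PBS, with median log2 fold changes of -0.53, -0.57, -0.68, -1.96 and -1.71. The 8 meningeal markers, all with reads in each group, summed to 1607 to 2306 CPM in Het_B12, 2509.6 to 3409 CPM in Het_PBS and 1900.2 to 4398 CPM in WT_PBS. The part of these cell types in the fall of Prdx1 was not tested.

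The enzymes that use cobalamin showed no called change. Mtr, which encodes methionine synthase, averaged 11.2 ± 2.15 CPM in Het_B12, 11.3 ± 0.927 CPM in Het_PBS and 11.2 ± 4.08 CPM in WT_PBS, and Mtrr, which encodes the reductase that reactivates it, 10.2 ± 1.499, 9.38 ± 2.11 and 9.03 ± 5.23 CPM (SD, n = 5 each). Mut, which encodes methylmalonyl-CoA mutase, averaged 27.7 ± 3.64 CPM in Het_B12, 36.5 ± 9.85 CPM in Het_PBS and 27.9 ± 3.57 CPM in WT_PBS. Its log2 fold change was -0.38 ± 0.18 for Het_B12 against Het_PBS and 0.38 ± 0.19 for Het_PBS against WT_PBS, with edgeR adjusted p of 0.208 and 0.66, and Het_PBS is common to both. Het_PBS 5 stood at 52.0 CPM of Mut, above 26.7 to 39.7 CPM in the other Het_PBS libraries, and without it these values were -0.23 and 0.23. For Mtr and Mtrr the log2 fold changes were at most 0.15 in size over the 3 comparisons, each smaller than its SE.

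**Figure D4:**
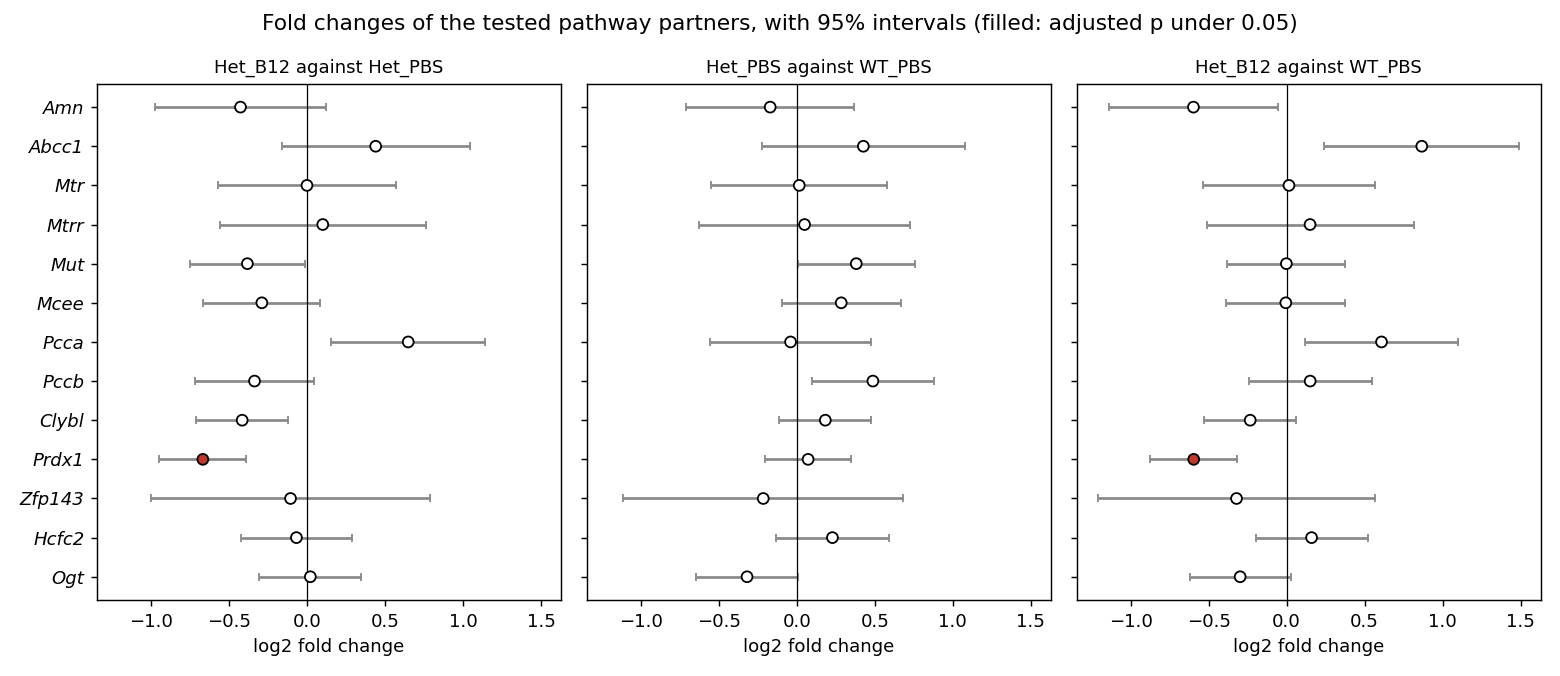
Log2 fold change (x axis) with 95% interval for the 13 tested other genes, of cobalamin handling or linked to it (y axis), in Het_B12 against Het_PBS, Het_PBS against WT_PBS and Het_B12 against WT_PBS. Filled points have an adjusted p under 0.05. Prdx1 is filled at -0.67 and -0.60 in the comparisons that hold Het_B12, and no other point is filled.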

How the data were processed

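The authors deposited raw read counts per gene, whole numbers for 30386 gene identifiers in 15 libraries, without normalisation, and no column was left unused. STAR, HTSeq, edgeR and the build mm10 are named in the submitters' processing notes; for versions, annotation, strand setting and filters, nothing is stated in the sources used here. Per the labels' protocols, libraries were made by a 3′-biased QuantSeq method, and both Qiazol with an added precipitation and RNeasy kits are named for RNA isolation; the tissue is called both whole brain and a hemisphere. Groups came from the sample titles. Each column name carries a number that does not repeat within its group, but the labels do not say that libraries are from separate mice. The p-values therefore reflect the spread among libraries, which may be technical. The same number stands on Het_PBS 5 and Het_B12 1. Chi-square over degrees of freedom was 10.3 between them, 8.96 to 10.6 between Het_PBS 5 and the other Het_B12 libraries, and 3.03 to 8.28 within groups. It cannot tell whether both came from 1 mouse, and no libraries were merged.

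Counts were analysed in R 4.3.3 with edgeR 4.0.16: filterByExpr, TMM factors, and a quasi-likelihood model of all 15 libraries with 1 mean per group (12 residual degrees of freedom, biological coefficient of variation 0.181). Contrasts and the 3-group F test were adjusted by Benjamini-Hochberg over 11718 genes and called under 0.05. CPM use library sizes summed over the tested genes. Correlations use log2 CPM with a prior count of 2. Standard errors and 95% intervals were derived from the test statistics. The contrast tests were tested on simulated data; the F test was not. Reads under 3 in a library (1.02 to 1.79 CPM) were taken as the detection floor, which covers counting error only. Of the identifiers, 30348 matched GENCODE M21 (GRCm38), which gave coordinates; 0 of the 10 genes overlap another annotated gene. Alternatives were DESeq2 size factors, no filter, DESeq2 1.42.0, a filter at a mean count of 50, limma 3.58.1 voom with and without quality weights, a replicate block, each library left out, and WT_PBS 3 with Het_PBS 5 left out. The genes and lists were chosen with earlier results of these data known. Values are given for all 10 genes, and among the other listed genes for any called and for Mtr, Mtrr and Mut. The most alike genes are named for the gene called.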

Additional observations from a re-analysis of the deposited data

Results flagged for a closer look

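The 10 genes and the 13 other tested genes, of cobalamin handling or linked to it, gave 69 sets of 5 libraries in 3 groups. Of these sets, 3 held a library whose gap to its nearest neighbour was over 0.71 of the range of its group, Dixon's 95% critical value. Chance gives about 1 in 20. Mmaa in WT_PBS 3 stood at 31.0 CPM, above 9.17 to 15.5 CPM in the other WT_PBS libraries. Prdx1 in Het_PBS 2 stood at 155 CPM, below 197 to 209 CPM in the other Het_PBS libraries and above every Het_B12 library. Mcee, which encodes methylmalonyl-CoA epimerase and is named for this value alone, stood at 45.4 CPM in Het_PBS 5, above 26.8 to 31.8 CPM in the other Het_PBS libraries.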

How the results depend on the processing

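No one of the 10 genes was called in any pair of groups under any setting, with 0 to 0 called in each comparison when 1 library was left out, and Prdx1 kept both of its calls in every setting. Of the 30 log2 fold changes of the 10 genes, 14 never changed sign; the 16 that did were at most 0.12 in size, and the cause was not tested. The count of the 10 genes called in the 3-group test, 1 in the reported fit, was 0 to 1 when 1 library was left out and 0 under limma-voom with quality weights, the replicate block (Thap11 adjusted p = 0.0569) and with WT_PBS 3 and Het_PBS 5 both left out. Over all tested genes, leaving out 1 library gave 549 to 1050 calls for Het_B12 against Het_PBS (851 reported), 0 to 14 for Het_PBS against WT_PBS (0 reported), 449 to 1268 for Het_B12 against WT_PBS (859 reported) and 556 to 1283 in the 3-group test (908 reported). Het_PBS against WT_PBS had 40 calls without the filter and 1 with WT_PBS 3 and Het_PBS 5 both left out, where Het_B12 against WT_PBS had 1390. The 0 calls of Het_PBS against WT_PBS by edgeR were also 0 by DESeq2 and limma-voom, with 879 genes at an unadjusted p under 0.05. Libraries with the same replicate number in their titles deviated together weakly, with correlations of -0.0933 to 0.106 over 15 pairs, 1 of them over 0.1. Of the 15 libraries, 5 correlated best with a library of their own replicate number. Such values cannot exclude that libraries are paired. The replicate number is not the column-name number that Het_PBS 5 and Het_B12 1 share. With the replicate block 830, 0, 800 and 875 genes were called. Under a mean count of at least 50, 4 of the 10 genes were tested. Depth limits Mmachc, Abcd4 and Tcn2 most, with 219, 287 and 333 reads in all.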
